A study of Mus musculus with 24 samples.

Results

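The primary, or azurophil, granule genes of promyelocytes were examined in bone marrow cells of wild-type (WT) and Nrf2-KO mice after spaceflight. They are Mpo, Elane, Prtn3, Ctsg, Prss57 and Ms4a3, chosen by name as granule proteins or markers of the promyelocyte, and 6 of the 54752 genes in the table. All 6 exceeded 1 TPM (transcript level corrected for length and library total) in every library and were among the 12373 genes tested. The table covers 24 male C57BL/6 mice, 6 in each group, with a library of total RNA per mouse. GC-WT mice were wild-type ground controls and FL-WT mice were wild-type mice that flew. GC-KO and FL-KO mice were the Nrf2-KO mice of the ground and the flight, which lack Nrf2 in every cell type. The flight mice were 8 weeks old at transport, had 3 weeks of acclimation to single cages and stayed in space for 31 days. The ground controls were kept in matching cages. Per the paper, flight and ground mice could not be sampled in the same place, so flight and sampling site cannot be told apart here. The cells came from the right pelvis and tibia and had been cryopreserved. Below, a value in flight is one of flown mice, sampled after their return to the ground and not in space.

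Promyelocytes are the stage of neutrophil development at which primary granules are made. Their granules hold myeloperoxidase and a family of serine proteases, which act on engulfed microbes and whose genes are switched off again before the secondary granules form. These genes are therefore read as a mark of immature granulocytes in marrow. Nrf2 is the transcription factor of antioxidant and detoxifying genes. In RNA of unsorted marrow, fewer cells of a type and less RNA per cell cannot be told apart.

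The libraries differed beyond the members. Nfe2l2, the gene of Nrf2, ranged from 11.4 to 27.3 TPM in WT and from 2.22 to 7.18 TPM in Nrf2-KO mice. Together, 5 small structural RNAs (Rmrp, Rpph1, Rn7sk, Rn7s1 and Rn7s2) held 35.4% to 59.6% of TPM. Granulocyte genes were abundant in every library, with a summed level of the 9 secondary granule genes of 5688 to 14924 TPM. The depth of the libraries is unknown, because the table holds no read counts. FL-WT vs. GC-WT is named here the WT flight comparison and FL-KO vs. GC-KO the KO flight comparison. GC-KO vs. GC-WT, on the ground, is named the ground genotype comparison, and its counterpart in flown mice the flight genotype comparison. A gene is called when its Benjamini-Hochberg adjusted p from limma on log2(TPM + 1) is under 0.1 and its fold change on that scale is at least 2. Over all tested genes this log2 fold change had a median of -0.24 in the WT and -0.29 in the KO flight comparison, -0.22 in the ground and -0.25 in the flight genotype comparison, so values of the members are also given relative to it.

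Mpo was lower in Nrf2-KO than in WT mice, both on the ground and after flight. Elane was called lower in Nrf2-KO than in WT mice after flight, but not under the 4 other scalings tried. No member was called in the WT flight comparison. The other members, Prtn3, Ctsg, Prss57 and Ms4a3, were called in no comparison. The order of the levels changed with the genotype. By the median, GC-WT mice had Elane highest, then Mpo, Prtn3, Ctsg, Ms4a3 and Prss57. In FL-WT mice Prtn3 (163 TPM) and Mpo (157 TPM) were in the reverse order, with ranges that overlapped. In both Nrf2-KO groups Mpo was in the fifth place by the median, after Elane, Prtn3, Ctsg and Ms4a3, although by the mean it was above Ms4a3 in GC-KO mice (85.2 and 75.2 TPM), where their ranges overlapped.

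**Figure D1:**
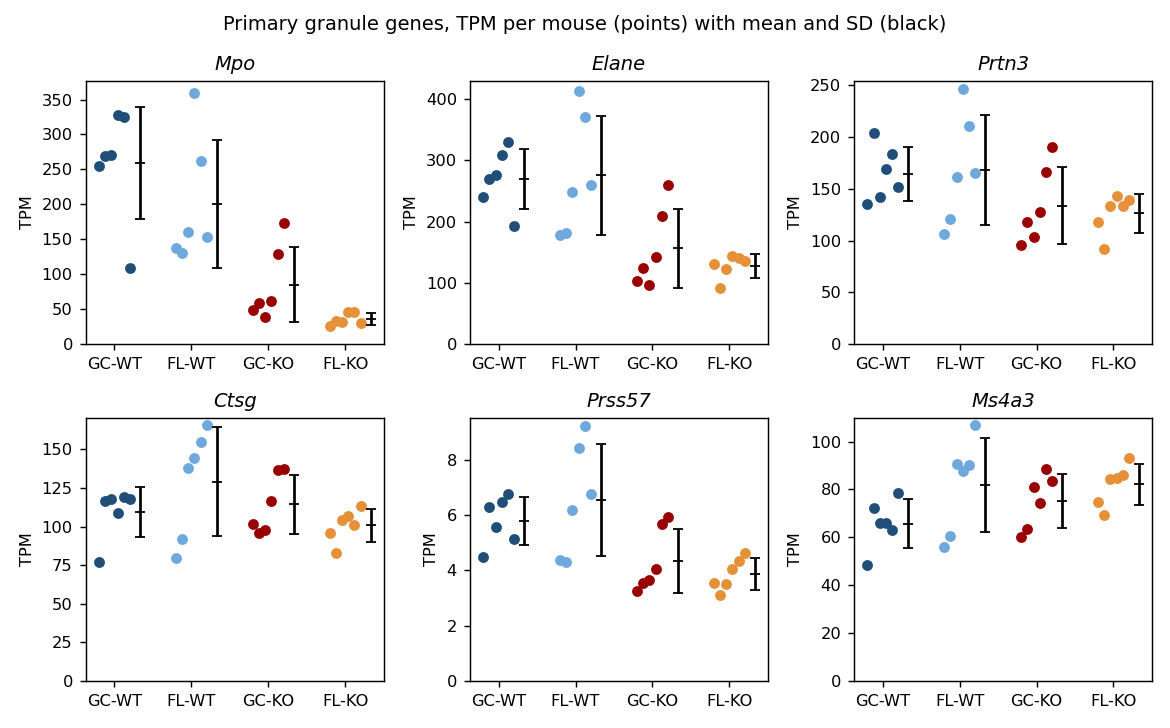
TPM of the 6 primary granule genes in each mouse (y axis, linear, from 0) by group (x axis), with the mean and SD of 6 mice beside the points. All FL-KO mice lie at 46.5 TPM or below for Mpo, under the lowest FL-WT mouse at 130 TPM, while the groups overlap for Ms4a3.

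Mpo encodes myeloperoxidase, the heme enzyme of the primary granule that makes hypochlorous acid from hydrogen peroxide. It lies at chr11:87793581-87804413 on the + strand of GRCm38 and was measured over the whole gene (ENSMUSG00000009350.13), whose longest transcript has 2750 nt. The level in GC-WT mice ran from 109 to 327 TPM, with a median of 270. In FL-WT mice it ran from 130 to 360 TPM, with a median of 157. In GC-KO mice it ran from 39.1 to 174 TPM, with a median of 60.7. In FL-KO mice it ran from 25.4 to 46.5 TPM, with a median of 32.5. FL-KO mice were below all mice of both WT groups, and GC-KO mice 11 and 12 were the only GC-KO mice above the lowest GC-WT mouse, number 10.

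The mean of Mpo was 259 ± 79.6 TPM in GC-WT and 85.2 ± 53.7 TPM in GC-KO mice (SD, n = 6 each), a difference of -1.72 in log2 (SE 0.31, limma, adjusted p = 0.000416). After flight it was 201 ± 91.6 TPM in FL-WT and 35.5 ± 8.63 TPM in FL-KO mice (SD, n = 6 per group), a difference of -2.39 in log2 (SE 0.31, limma, adjusted p = 1.85e-06). Relative to the median of all genes these were -1.5 and -2.14. Among the 12373 tested genes, Mpo had the 8th lowest log2 fold change on the ground and the 6th lowest in flight. The comparisons share no mice, and the genotype difference was called in each.

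Between flight and ground, the log2 fold change of Mpo was -1.06 in the KO flight comparison (SE 0.31, limma, adjusted p = 0.00981), which is -0.77 relative to all genes. The groups overlapped, since 2 FL-KO mice, at 45.9 and 46.5 TPM, were above the lowest GC-KO mouse. This call was lost without GC-KO mouse 11 (-0.90, adjusted p = 0.0378), GC-KO mouse 12 (-0.81, adjusted p = 0.0369) or FL-KO mouse 1 (-0.97, adjusted p = 0.0287), where limma's fold change fell short of 2. In the WT flight comparison it was -0.39 (95% interval -1.03 to 0.24, limma, adjusted p = 0.326). The interaction of flight and genotype was -0.67 (95% interval -1.57 to 0.23, unadjusted p = 0.141, limma, adjusted p = 1), so the fall in Nrf2-KO mice was not shown to differ from the change in WT mice. Without GC-WT mouse 10, the lowest of its group, the WT flight value was -0.63 (limma, adjusted p = 0.101) and the interaction -0.43, neither of them called.

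Elane encodes neutrophil elastase, and Prtn3 encodes proteinase 3, serine proteases of the same granule. Their genes lie side by side on the + strand of chromosome 10, Prtn3 at chr10:79874476-79883174 (ENSMUSG00000057729.12) and Elane at chr10:79886247-79888215 (ENSMUSG00000020125.7), with 3073 bp between them. The following RefSeq sequences of build GRCm38.p6, written 5′ to 3′ on the strand of the gene, are shown because Mpo and Elane were the called members and Prtn3 is the neighbour of Elane that was not. Capitals mark GAGGAA, the core of PU.1 sites, AACGG, the core of Myb sites, and TATAA.
Mpo, chr11:87793534-87793580: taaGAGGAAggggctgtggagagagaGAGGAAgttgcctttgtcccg
Elane, chr10:79886187-79886246: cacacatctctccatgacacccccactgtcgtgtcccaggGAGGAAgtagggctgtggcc
Elane, chr10:79886262-79886285: AACGGcctctggttccagcTATAA
Prtn3, chr10:79879552-79879611: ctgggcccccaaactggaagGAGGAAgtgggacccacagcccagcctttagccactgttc
Prtn3, chr10:79879612-79879639: AACGGctcccggcagagctgggcTATAA

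The same 3 motifs stood in the same order upstream of the RefSeq starts of Elane and Prtn3. GAGGAA began 85 and 95 bases, AACGG 50 and 55 bases and TATAA 31 and 32 bases upstream of Elane and Prtn3, respectively. Mpo had 2 matches of GAGGAA, which began 247 and 224 bases upstream, and Ctsg had 1, which began 216 bases upstream. In the 250 bases upstream of 32817 starts in the RefSeq table, on either strand, GAGGAA was in 23.3%, AACGG in 14.5% and TATAA in 22.8%. TTGCNNAA, the core of C/EBP sites, was in 9.57% and in none of the 5 members with a promoter in the table. TGTGGT, the core of Runx sites, was in 14.0% and in Ctsg alone of those members. TGACNNNGC, the core of the element that Nrf2 binds with small Maf proteins, was in 10.2%, and among the members it was found upstream of Ms4a3 alone. That match is in capitals in the sequence, shown because Nrf2 is the factor deleted.
Ms4a3, chr19:11641004-11641031, - strand: accttcccacTGACTTAGCcccttgttc
These matches describe the letters of a window and not the binding of a factor. In GENCODE M21 the stretches of Mpo and Ms4a3 and the longer stretch of Elane lie upstream of the gene. The shorter stretch of Elane lies in its first exon. The longer stretch of Prtn3 lies inside the gene, in an intron of a transcript that starts further upstream, and the shorter one overlaps the first exon of a coding transcript. Prss57 was not in the table.

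Elane ranged from 193 to 330 TPM in GC-WT mice (median 273) and from 177 to 413 TPM in FL-WT mice (median 254). It ranged from 97.2 to 260 TPM in GC-KO mice (median 134) and from 91.7 to 143 TPM in FL-KO mice (median 133). All FL-KO mice were below all FL-WT mice, whereas GC-KO mice 11 and 12 reached the range of GC-WT mice. The mean was 275 ± 97.3 TPM in FL-WT and 127 ± 19.0 TPM in FL-KO mice (SD, n = 6 per group), a difference of -1.04 in log2 (SE 0.22, limma, adjusted p = 0.000351). On the ground it was 270 ± 48.9 and 156 ± 64.8 TPM (SD, n = 6 each), a difference of -0.86 in log2 (SE 0.22, limma, adjusted p = 0.00326), which passed the adjusted p but not the fold. The value in flight lay just past the fold and fell short of it without FL-KO mouse 2 (-0.95), FL-WT mouse 7 (-0.91) or FL-WT mouse 8 (-0.94), and the ground value passed it without GC-KO mouse 12 (-1.03). Elane was at -0.02 (95% interval -0.47 to 0.43) in the WT flight comparison and at -0.21 (95% interval -0.66 to 0.24) in the KO flight comparison.

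Prtn3 ranged from 135 to 204 TPM in GC-WT, from 106 to 246 TPM in FL-WT, from 96.1 to 190 TPM in GC-KO and from 92.0 to 143 TPM in FL-KO mice, and the groups overlapped in each comparison. Its log2 fold change was -0.32 in the ground genotype comparison (95% interval -0.70 to 0.05, limma, adjusted p = 0.17) and -0.37 in the flight genotype comparison (95% interval -0.74 to 0.01, limma, adjusted p = 0.11). Relative to all genes these were -0.10 and -0.12. The flight comparisons gave -0.01 in WT and -0.05 in Nrf2-KO mice. The start of Prtn3 in the annotation overlaps Plppr3, which lies on the other strand and averaged 1.64 TPM, and the library kit keeps the strand.

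Ctsg encodes cathepsin G, the protease of the granule with a chymotrypsin-like cut, and lies at chr14:56099881-56102574 on the - strand (ENSMUSG00000040314.2). It ranged from 76.8 to 119 TPM in GC-WT, from 79.6 to 166 TPM in FL-WT, from 95.9 to 137 TPM in GC-KO and from 82.8 to 114 TPM in FL-KO mice. The groups overlapped in every comparison. Its log2 fold change was 0.06 in the ground genotype comparison (95% interval -0.26 to 0.39, limma, adjusted p = 0.791) and -0.31 in the flight genotype comparison (95% interval -0.64 to 0.01, limma, adjusted p = 0.116).

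Prss57 encodes a serine protease of the primary granule with the cleavage preference of a trypsin, and it is the third member on chromosome 10, at chr10:79781474-79790961 on the - strand (ENSMUSG00000020323.14). Its level was the lowest of the members, from 4.48 to 6.76 TPM in GC-WT, 4.31 to 9.21 TPM in FL-WT, 3.24 to 5.92 TPM in GC-KO and 3.12 to 4.61 TPM in FL-KO mice. FL-KO and FL-WT mice overlapped. The log2 fold change was -0.60 in the flight genotype comparison (SE 0.16, limma, adjusted p = 0.0026) and -0.36 in the ground genotype comparison (SE 0.16, limma, adjusted p = 0.0681). Both passed the adjusted p and neither the fold, and relative to all genes they were at -0.35 and -0.14.

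Ms4a3 encodes a membrane protein of the MS4A family that marks granulocyte and monocyte precursors, and lies at chr19:11629496-11640851 on the - strand (ENSMUSG00000024681.11). It ranged from 48.5 to 78.7 TPM in GC-WT, from 55.9 to 107 TPM in FL-WT, from 60.2 to 88.5 TPM in GC-KO and from 69.3 to 93.3 TPM in FL-KO mice. The highest and the lowest flight mouse were both WT. The log2 fold change was 0.29 in the WT flight comparison (95% interval -0.00 to 0.59, limma, adjusted p = 0.121), 0.19 in the ground genotype comparison (95% interval -0.10 to 0.49) and 0.03 in the flight genotype comparison (95% interval -0.26 to 0.33, limma, adjusted p = 0.889). These intervals leave out a 2-fold fall. With median-of-ratios scaling Ms4a3 was at 0.54 on the ground and 0.47 in flight between the genotypes (limma, adjusted p = 0.00147 and 0.00281). With quantile normalization it was at 0.39 and 0.33 (limma, adjusted p = 0.00888 and 0.0196). These were short of the fold. With the dependence on length and GC content removed it was at -0.00 and -0.16 (limma, adjusted p = 0.972 and 0.161).

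**Figure D2:**
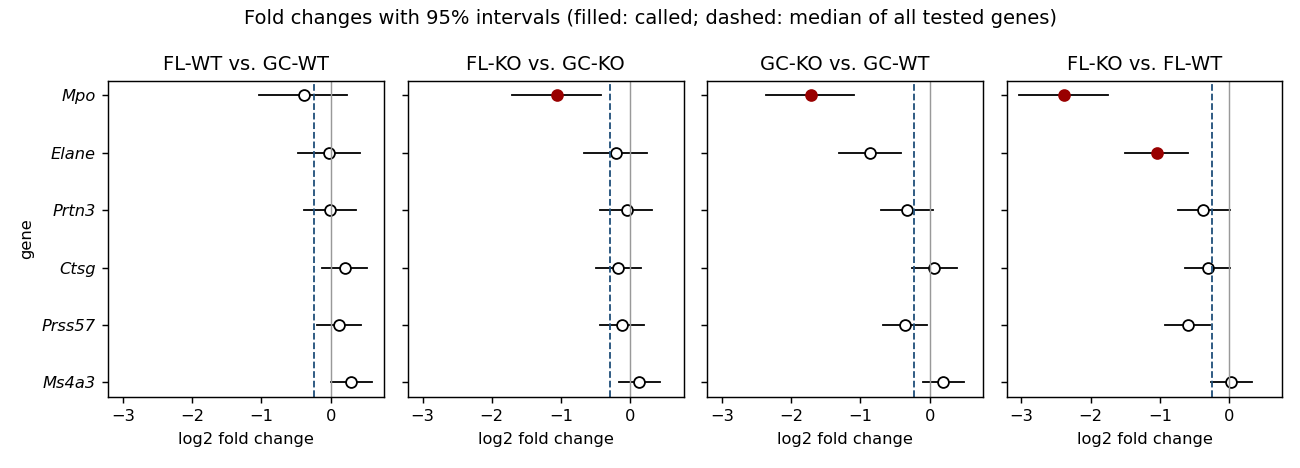
Log2 fold change on the log2(TPM + 1) scale (x axis) of the 6 genes (y axis) in the 4 comparisons, with 95% intervals from limma. Filled points are called and the dashed line is the median of all tested genes, which lies between -0.29 and -0.22. Mpo is called in 3 comparisons and Elane in the flight genotype comparison.

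Counted over the members, 0 of 6 were called lower in the WT flight comparison, where 0.938% of all tested genes were. In the KO flight comparison, 1 of 6 was called lower, against 2.13% of all tested genes. In the ground genotype comparison it was 1 of 6 against 3.04%, and in the flight genotype comparison 2 of 6 against 8.36%. None was called higher in these comparisons, as were 0.0647%, 0.0%, 0.129% and 0.097% of tested genes, respectively. In the WT flight comparison, 0 members had an unadjusted p under 0.05 with TPM as deposited. With the adjusted p alone and no fold, 0, 1, 3 and 3 members were lower in the 4 comparisons in that order, against 39.0%, 53.1%, 42.9% and 47.2% of tested genes. All 6 FL-KO mice were below all 6 FL-WT mice for 2 members and for 20.6% of tested genes. All 6 GC-KO mice were below all 6 GC-WT mice for 0 members and for 9.15% of tested genes. In the interaction of flight and genotype 0 members were called from limma and 0 had an unadjusted p under 0.05, and 0.0162% of tested genes were called. The WT flight comparison depended on the scaling. With median-of-ratios scaling between libraries, Ms4a3 (0.64), Ctsg (0.55), Prss57 (0.41) and Prtn3 (0.34) were higher there (limma, adjusted p = 0.000917, 0.00197, 0.00243 and 0.0454). All were short of the fold. Mpo (-0.04) and Elane (0.33) did not pass the adjusted p. The share of all tested genes that did is not given here.

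The median of the members was also set beside that of all genes. Their median log2 fold change was 0.06 in the WT flight comparison, -0.14 in the KO flight comparison, -0.34 in the ground genotype comparison and -0.48 in the flight genotype comparison. Relative to all genes it was 0.30, 0.14, -0.12 and -0.23. Their summed level had a median of 908 TPM in GC-WT mice (655 to 1028), 831 in FL-WT mice (561 to 1259), 496 in GC-KO mice (412 to 851) and 497 in FL-KO mice (372 to 527). All FL-KO mice were below all FL-WT mice, and the GC-KO range reached into that of GC-WT mice.

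Proportions within a library do not depend on a single scaling factor per library, and they are given as a description with no test. They do change under a scaling that differs between genes, such as quantile normalization or removal of the dependence on length and GC content. With that dependence removed, Mpo and Ms4a3 were at -1.68 and -0.16 in the flight genotype comparison, against -2.39 and 0.03 as deposited. Mpo made up a median of 31.2% of the summed level in GC-WT mice (16.7% to 33.5%) and 23.0% in FL-WT mice (17.8% to 28.6%). It made up 12.3% in GC-KO mice (9.26% to 20.4%) and 7.70% in FL-KO mice (5.67% to 9.07%). The FL-KO mice lay below all other mice in this share, and GC-WT mouse 10 (16.7%) and FL-WT mice 10 (17.8%) and 6 (20.0%) lay within the GC-KO range. Ms4a3 was at 0.223 times the level of Mpo in GC-WT mice by the median (0.191 to 0.721), at 0.437 times in FL-WT mice (0.243 to 0.701), at 1.13 times in GC-KO mice (0.481 to 2.07) and at 2.37 times in FL-KO mice (1.85 to 3.06). The ratio of Ctsg to Mpo followed the same order of groups, with medians of 0.400, 0.649, 1.75 and 2.89.

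The ratios of Elane and Prtn3 to Mpo followed it too. All the ratios to Mpo, and its share, rest on the same Mpo values, so their common order is not a repeated observation. Elane was at 1.01 times Mpo in GC-WT mice by the median (0.941 to 1.77), at 1.41 times in FL-WT mice (1.15 to 1.70), at 2.12 times in GC-KO mice (1.5 to 2.48) and at 3.47 times in FL-KO mice (2.81 to 5.15). Prtn3 was at 0.548, 0.866, 1.99 and 3.62 times Mpo, and Prss57 at 0.0207, 0.0341, 0.0624 and 0.102 times, in the same order of groups. The ratio of the neighbours Elane and Prtn3, chosen after their values were seen, had medians of 1.79 in GC-WT mice (1.27 to 1.94), 1.62 in FL-WT mice (1.5 to 1.76), 1.09 in GC-KO mice (0.937 to 1.36) and 1.0 in FL-KO mice (0.924 to 1.11). Genotypes did not overlap in flight and overlapped on the ground, where GC-WT mice 5 and 10 lay at 1.33 and 1.27.

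**Figure D3:**
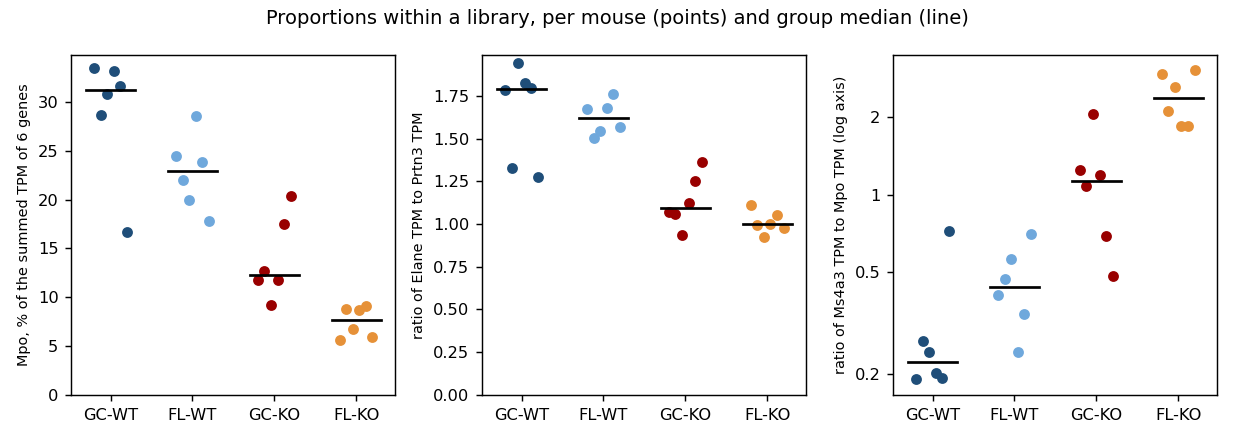
Share of Mpo in the summed TPM of the 6 genes (left, percent), ratio of Elane to Prtn3 (middle) and ratio of Ms4a3 to Mpo (right, log axis) in each mouse, with the group median as a line. The median share of Mpo is 31.2%, 23.0%, 12.3% and 7.70% from the left group to the right.

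Across the 24 libraries, the log2 levels of Mpo and Elane had a Pearson's r of 0.93, and those of Elane and Prss57 of 0.94. Mpo and Ms4a3 had an r of -0.17, and Ctsg and Ms4a3 of 0.75. These are descriptions over libraries that share their group means and their scaling. With median-of-ratios scaling between libraries, the r of Mpo and Elane was 0.78, that of Ctsg and Ms4a3 0.92 and that of Mpo and Ms4a3 -0.68. On this scale Mpo had an r of -0.05 with Prtn3, -0.47 with Ctsg and 0.31 with Prss57. As deposited these were 0.72, 0.41 and 0.83.

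The members differ in length and base composition. Mpo has a longest transcript of 2750 nt with a GC content of 56.4%, and Ms4a3 one of 1503 nt with 40.0%. Elane, Prtn3 and Ctsg have 984, 1025 and 1002 nt with 57.4%, 60.7% and 51.5%, and Prss57 has 2841 nt with 54.1%. After removing each library's dependence on length and GC content, the log2 fold change of Mpo was -1.21 in the ground genotype comparison and -1.68 in the flight genotype comparison, both still called, and -0.58 in the KO flight comparison, which was not. Elane was at -0.64 in the flight genotype comparison after this step and not called. Prtn3, with the highest GC content of the members, was at -0.05 on the ground and 0.13 in flight. The part of these trends in the results was not tested beyond this.

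**Figure D4:**
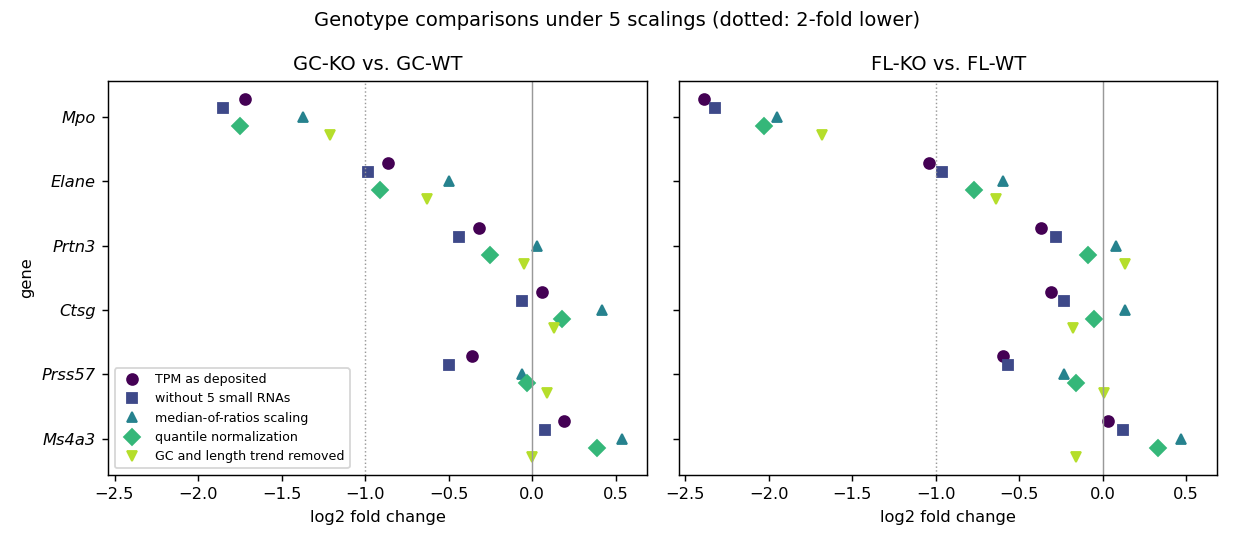
Log2 fold change (x axis) of the 6 genes (y axis) in the genotype comparisons under 5 ways of scaling the libraries (symbols), with a dotted line at a 2-fold fall. Mpo lies left of this line under all 5, and Elane lies right of it in flight under the 4 alternatives.

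Between the genotypes, Mpo was called however the libraries were scaled. With median-of-ratios scaling its log2 fold change was -1.37 in the ground genotype comparison and -1.95 in the flight genotype comparison, with quantile normalization -1.75 and -2.03, and without the 5 small RNAs -1.85 and -2.32, all called. The fall of Mpo in the KO flight comparison was called under none of these 3, at -0.63, -0.73 and -0.89, nor was that of Elane in the flight genotype comparison, at -0.60, -0.77 and -0.96. The log2 fold changes of Prtn3, Ctsg, Prss57 and Ms4a3 changed sign in at least 1 comparison under another scaling. That of Elane did so between flight and ground. No direction is given for the comparisons where the sign changed. In the WT flight comparison Ctsg, Prss57 and Ms4a3 were positive under every setting, though not called. Over the fits without 1 library they ran from 0.10 to 0.33, 0.02 to 0.21 and 0.21 to 0.39. Ms4a3 was also positive throughout in the KO flight comparison (0.07 to 0.18 over these fits).

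The other genes of the pathway were taken from lists of known genes. Of 11 tested lysosomal and antimicrobial contents of the primary granule, 1 was called lower in the ground genotype comparison and 3 in the flight genotype comparison, and the list medians lay at -0.25 and -0.43 relative to all genes. Man2b1, a lysosomal mannosidase, was the one called on the ground (-1.20, limma, adjusted p = 0.000454), and those called in flight included Man2b1 (-1.72) and Ctsd, the protease cathepsin D (-1.22). With median-of-ratios scaling 0 and 1 were called. None was called in the flight comparisons, where the medians were 0.08 and -0.06 relative to all genes.

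Genes for folding, activating and sorting the granule proteins came next. Of 15, 0 were called in the ground genotype comparison and 2 lower in the flight genotype comparison, and 0 were called in either flight comparison. In the genotype comparisons the list medians lay at -0.32 and -0.38 relative to all genes. The called genes were Calr, a chaperone of the precursor of myeloperoxidase, at -1.15 (limma, adjusted p = 2.79e-05), and Unc13d, a factor of granule release, at -1.46. Calr was not called with median-of-ratios scaling (-0.71), quantile normalization (-0.77) or the length and GC trend removed (-0.81), nor was Unc13d with that trend removed (-0.60). Calr went from 62.2 to 112 TPM in GC-WT, 56.1 to 120 TPM in FL-WT, 35.0 to 75.5 TPM in GC-KO and 28.8 to 39.5 TPM in FL-KO mice. Ctsc, the dipeptidyl peptidase that activates the granule serine proteases, was at -0.47 in both genotype comparisons (adjusted p = 0.0291 and 0.0253 from limma), short of the fold. Srgn, the core protein of the proteoglycan that packs the proteases, was at 0.49 in the WT flight comparison (limma, adjusted p = 0.00377) and -0.08 in the ground genotype comparison.

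The protease inhibitors were not called. Serpinb1a, a cytosolic inhibitor of elastase, proteinase 3 and cathepsin G, was at -0.20 in the ground genotype comparison (limma, adjusted p = 0.178) and at -0.37 in the flight genotype comparison (limma, adjusted p = 0.0115). Of the 3 inhibitors 0 were called in any of the 4 comparisons.

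Of 11 other promyelocyte markers, 2 were called lower in the ground genotype comparison and 3 in the flight genotype comparison, and 0 in either flight comparison, and the list medians lay at -0.06 and -0.01 relative to all genes in the genotype comparisons. They were Gstm1, a glutathione transferase (-1.15 and -1.63), and Alas1, the first enzyme of heme synthesis outside erythroid cells (-1.06 and -1.33), in both, and Fcnb, a ficolin (-1.05), in flight. With median-of-ratios scaling 0 were called on the ground and 1, Gstm1 at -1.23, in flight.

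Between the genotypes, 9 of 10 transcription factors of granulocytes passed the adjusted p as lower on the ground and 10 of 10 in flight. Of all tested genes, 42.9% and 47.2% did. Of the 10, 0 were called in the ground genotype comparison and 6 in the flight genotype comparison, and the list medians lay at -0.48 and -0.77 relative to all genes. Cebpa, the factor that starts the granulocyte programme, fell by 1.20 on the log2 scale in the flight genotype comparison (limma, adjusted p = 9.88e-07), and Spi1, the gene of PU.1, by 1.3 (limma, adjusted p = 8.2e-06). Cebpe, which acts at the change to secondary granules, fell by 1.01 there (limma, adjusted p = 2.83e-05), and Klf4, a factor of monocytes, by 1.19. Myb was at -0.79 on the ground and -0.70 in flight, and Gfi1 at -0.66 and -0.83, all past the adjusted p and short of the fold. With median-of-ratios scaling, 0 of the 10 were called in either genotype comparison and the list medians lay at -0.42 and -0.64 relative to all genes.

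The secondary granule genes mark the myelocyte stage that follows. Of 9, 1 was called lower in the ground genotype comparison and 4 in the flight genotype comparison, and 0 in either flight comparison. In the genotype comparisons the list medians lay at -0.47 and -0.70 relative to all genes. Ltf, the gene of lactoferrin, fell by 1.62 and by 2.33 on the log2 scale (adjusted p = 0.000411 and 9.88e-07 from limma), and it was called under the same 5 scalings as Mpo in both comparisons. Camp, the gene of cathelicidin in the same granule, was at 0.19 and 0.02 (adjusted p = 0.319 and 0.947 from limma). Lcn2, the gene of lipocalin 2, fell by 1.13, Hp, that of haptoglobin, by 1.03 and Cd177, a surface receptor, by 1.85 in the flight genotype comparison. With median-of-ratios scaling 2 of the 9 were called there, and Lcn2 (-0.69) and Hp (-0.59) were not. The summed level of the members was 0.0920 times that of the secondary granule genes in GC-WT mice by the median (0.0672 to 0.0995), 0.0795 in FL-WT (0.0459 to 0.0937), 0.0746 in GC-KO (0.0696 to 0.0986) and 0.0658 in FL-KO mice (0.0640 to 0.0716), ranges that overlapped.

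**Figure D5:**
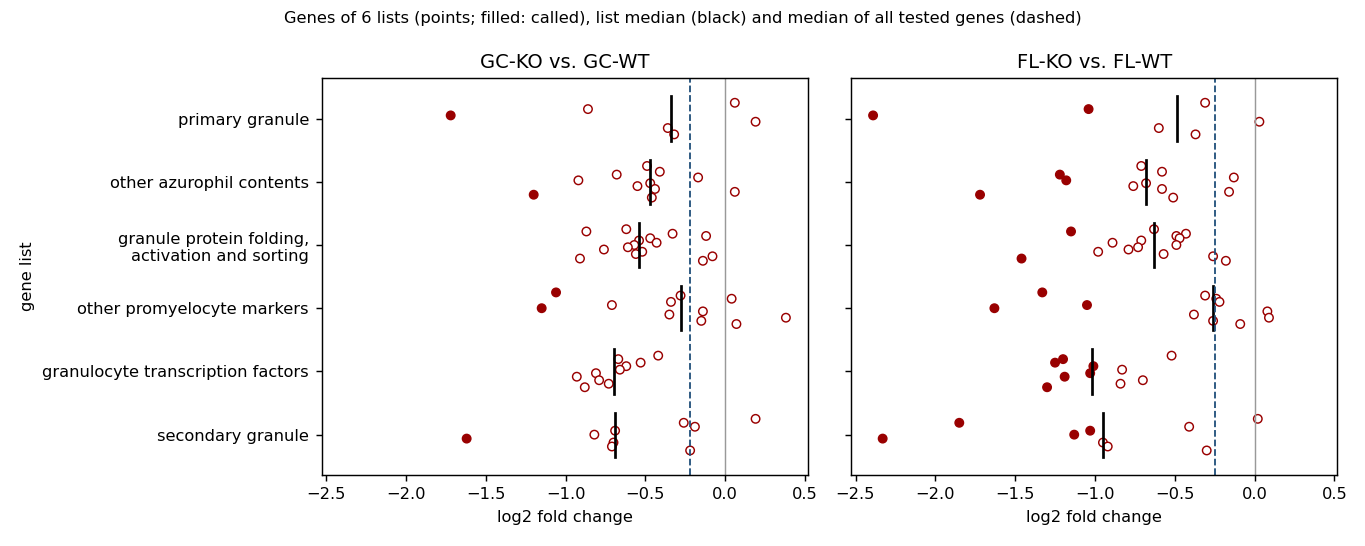
Log2 fold change (x axis) of the genes of 6 lists (y axis) in the genotype comparisons; each point is a gene, filled where called, with the list median in black and the median of all tested genes as a dashed line. In the flight genotype comparison the list medians run from -1.02 for the transcription factors to -0.26 for the other promyelocyte markers.

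Markers of other cells moved as well, and their part in the results was not tested. Of 10 mature neutrophil genes, 1 was called lower in the KO flight comparison, Mmp9 at -1.17. There 0 were called with median-of-ratios scaling, quantile normalization or the length and GC trend removed. In each genotype comparison 2 were called lower. The 2 were Mmp9 (-1.92 and -2.85) and Csf3r (-1.16 and -1.66, not called on the ground at -0.81 with median-of-ratios scaling). With the adjusted p alone, 5 were lower and 3 higher in the ground genotype comparison, against 5306 and 387 of all 12373 tested genes. In the flight genotype comparison 7 were lower and 0 higher, against 5844 and 236. In the WT flight comparison 0 were lower and 3 higher, against 4821 and 123. The summed level of the list ran from 24427 to 48755 TPM in GC-WT, 39098 to 54315 in FL-WT, 37236 to 57350 in GC-KO and 45288 to 61810 in FL-KO mice. It rests mostly on S100a8 and S100a9, which reached 28336 and 31007 TPM. Of 6 monocyte genes, 1 was called lower on the ground and 2 in flight between the genotypes (0 and 1 with median-of-ratios scaling), and their sum ran from 418 to 567 TPM in GC-WT, 381 to 688 in FL-WT, 311 to 524 in GC-KO and 290 to 415 in FL-KO mice. Of 11 tested eosinophil, basophil and mast cell genes, 1 and 5 were called lower in the genotype comparisons, with median-of-ratios scaling 0 were called in both while 3 were called higher in the WT flight comparison, and the sum of the 13 listed ran from 986 to 1554 TPM in GC-WT, 1601 to 2104 in FL-WT, 1067 to 1532 in GC-KO and 394 to 1285 in FL-KO mice. Tpsb2 was at 0 TPM in 21 libraries and Cma1 in 2. Of 6 erythroid genes, 3 and 4 were called lower in the WT flight comparison and the KO flight comparison, and 0 and 2 in the genotype comparisons, against 0, 2, 0 and 0 with median-of-ratios scaling, and the sum ran from 833 to 1823 TPM in GC-WT, 662 to 1129 in FL-WT, 1212 to 2044 in GC-KO and 684 to 1085 in FL-KO mice.

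Of 8 B lineage genes, 1 was called lower in the WT flight comparison, the ground genotype comparison and the flight genotype comparison each, and 0 in the KO flight comparison (0 in all with median-of-ratios scaling), with a sum of 170 to 241 TPM in GC-WT, 83.8 to 213 in FL-WT, 111 to 168 in GC-KO and 67.9 to 110 in FL-KO mice. Of 4 tested stem and progenitor genes, 0 were called in the 4 comparisons, and the sum of the 6 listed ran from 8.86 to 16.4 TPM in GC-WT, 7.73 to 15.9 in FL-WT, 5.87 to 12.1 in GC-KO and 5.17 to 7.79 in FL-KO mice. Of the other lists, only Bpi was at 0 TPM in some libraries, 13 of them, with at most 0.04 TPM in the rest.

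The genes around the members were compared next. Within 100 kb of Mpo, Epx, the peroxidase of eosinophils, which lies 59.6 kb away, was at -0.37 in the ground genotype comparison (limma, adjusted p = 0.137) and fell by 1.22 in the flight genotype comparison (limma, adjusted p = 1.52e-05). Epx was not called there with median-of-ratios scaling (-0.79), quantile normalization (-0.83) or the length and GC trend removed (-0.52). Supt4a was at 0.30 and 0.10 and Mir142hg at -0.20 and -0.39 in these comparisons. Around Elane and Prtn3, the genes Ptbp1 (-1.41), Med16 (-1.38), Tmem259 (-1.17), Arid3a (-1.61), R3hdm4 (-1.13) and Palm (-1.38) were called lower in the flight genotype comparison, with values below the -1.04 of Elane. Of all tested genes, 8.36% were called lower in this comparison. Arid3a was called on the ground as well (-1.18). With median-of-ratios scaling Tmem259 (-0.80) and R3hdm4 (-0.70) in flight and Arid3a on the ground (-0.85) were not called, and with the length and GC trend removed none of the 6 was. The other genes examined around Elane and Prtn3 were short of the fold in the flight genotype comparison. These were Plppr3 (-0.98), Wdr18 (-0.49) and the member Prss57 (-0.60).

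Prss57 shared most of these neighbours. Besides them, Rnf126 was at -0.92, Polrmt at -0.83, Cdc34 at -0.57 and Bsg at -0.01 in the flight genotype comparison, and none was called. Mcpt8, next to Ctsg, was at -0.19 there, and Ms4a2, Ms4a6b and Ms4a6d near Ms4a3 were at 0.09, 0.05 and -0.26. None of these was called in any comparison, and the distance to Ms4a3 was 5.8 kb for Ms4a2.

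Among 5019 other genes that averaged 5 TPM or more, those most like the members were sought by the Pearson's r with their mean standardised log2 level over 24 libraries. The highest were Ssr2, a subunit of the translocon-associated complex (r = 0.95), Nkg7, a granule membrane protein (0.94), and Ap1s1, a subunit of a clathrin adaptor (0.93). Mdh1, 1700020L24Rik, Eif4a1 and Tmed3 had an r of 0.91, and Park7, Suclg1 and Yif1b of 0.90. With median-of-ratios scaling, Ssr2 (0.89), Nkg7 (0.85) and Ap1s1 (0.84) were the first again, before Apex1, Hsd11b1 and Gsto1 (0.83), Dad1 and Rpia (0.81), and Cmtm7 and Mdh1 (0.80). These libraries share group means, so an r describes the pattern over the groups as much as that within them. With median-of-ratios scaling some members had a negative r with each other, so their mean does not stand for each of them.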

How the data were processed

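The deposited table gives TPM for 54752 genes in 24 libraries. Per the labels and the study's methods, the authors used the MGIEasy RNA Directional Library Prep Set for stranded libraries, mapped reads to mm10 (GRCm38) and calculated TPM, with STAR 2.6.1 and RSEM 1.3.1 as the tools. Read counts, and so depth and counting error, are unknown. Gene IDs without version were matched to GENCODE M21 (54723 matched).

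The 12373 genes above 1 TPM in at least 1 library were tested with limma 3.58.1 (R 4.3.3) on log2(TPM + 1) in a group-means model of 24 libraries with Benjamini-Hochberg adjustment. Adding 1 makes the fold changes of low genes smaller. Alternatives were another pseudocount, filters, scalings, thresholds and fits, a replicate block by mouse number, and fits that leave out 1 library. The fit was tested on simulated data with independent noise per gene and no shift of whole libraries. It therefore does not test the calls under the shift between groups seen here. Tables were summarised with pandas 2.3.3 in Python 3.11.15.

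The members and lists were chosen with earlier results of these data known. The text names the members, genes whose role concerns them, up to 4 called genes per granulocyte list and comparison by adjusted p, neighbours within 100 kb (mean of 1 TPM or more) and the 10 most similar genes per scaling. The values of 1 called gene that this rule names are not reported here. Replicates are separate mice.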

Additional observations from a re-analysis of the deposited data

Results flagged for a closer look

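In GC-WT mouse 10, Mpo was at 109 TPM, while the nearest other GC-WT mouse was at 254 TPM. The gap was 0.666 of the range of the group, past Dixon's critical value for 6 mice. The ratios to Mpo in this mouse stood apart for the same reason, at 1.77 for Elane (nearest other 1.02), 1.39 for Prtn3 (0.757), 1.08 for Ctsg (0.435), 0.0469 for Prss57 (0.0233) and 0.721 for Ms4a3 (0.269). In GC-WT mouse 3, Ctsg was at 76.8 TPM against 109 TPM in the nearest other mouse. Of 48 groups of 6 values examined, 7 stood apart in this way, all but that of Ctsg resting on the Mpo value of mouse 10, where chance gives about 1 in 20. Without mouse 10, the log2 fold change of Mpo in the ground genotype comparison was -1.95 and still called, within the range of -1.97 to -1.54 over all fits without 1 library. In the WT flight comparison it was -0.63 (limma, adjusted p = 0.101), against -0.39 with all mice, and the interaction was -0.43 against -0.67.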

How the results depend on the processing

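Mpo was called lower in the ground genotype comparison and the flight genotype comparison under every setting tried and in each of the 24 fits without 1 library. The number of members called in the KO flight comparison was 0, and in the flight genotype comparison 1, with median-of-ratios scaling, quantile normalization, the GC content and length trend removed, or without the 5 small RNAs. With no minimum fold change it was 3 in the ground genotype comparison. Leaving out each library gave 0 to 1 in the KO flight comparison, 1 to 2 in the flight genotype comparison and 1 to 2 in the ground genotype comparison. The calls lost were those of Mpo and Elane just past the fold of 2, and the cause was not tested. The median summed level of the members was 717 in GC-WT, 853 in flown WT, 505 in GC-KO and 640 in flown Nrf2-KO mice with median-of-ratios scaling, so that flown mice had the higher median in both genotypes, unlike the 908 and 831 TPM of WT mice as deposited. Without the 5 small RNAs, whose share is then spread over the other genes, it was 1800 TPM in GC-WT, 1580 in flown WT, 923 in GC-KO and 980 in flown Nrf2-KO mice.

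Some log2 fold changes kept their sign and grew with median-of-ratios scaling, while those of Mpo and Elane in the genotype comparisons shrank. Ms4a3 was then at 0.57 in the KO flight comparison and Ctsg at 0.42 in the ground genotype comparison (limma, adjusted p = 0.00202 and 0.00647). Both were short of the fold. Other log2 fold changes, small as deposited, changed sign. With median-of-ratios scaling, the log2 fold change was 0.33 for Elane and 0.34 for Prtn3 in the WT flight comparison, 0.23 for Elane, 0.38 for Prtn3, 0.26 for Ctsg and 0.24 for Prss57 in the KO flight comparison, 0.03 for Prtn3 in the ground genotype comparison, and 0.08 for Prtn3 and 0.13 for Ctsg in the flight genotype comparison. With quantile normalization it was 0.05 for Prtn3 in the WT flight comparison, and 0.04 for Elane, 0.21 for Prtn3, 0.10 for Ctsg and 0.28 for Prss57 in the KO flight comparison. Without the 5 small RNAs it was -0.06 for Ctsg in the ground genotype comparison, and 0.13 for Prtn3, 0.01 for Ctsg and 0.03 for Prss57 in the KO flight comparison. With the GC content and length trend removed it was 0.12 for Elane and 0.14 for Prtn3 in the WT flight comparison, 0.11 for Elane, 0.32 for Prtn3, 0.02 for Ctsg and 0.32 for Prss57 in the KO flight comparison, 0.09 for Prss57 and -0.00 for Ms4a3 in the ground genotype comparison, and 0.13 for Prtn3, 0.01 for Prss57 and -0.16 for Ms4a3 in the flight genotype comparison. Leaving out each library gave -0.15 to 0.09 for Elane and -0.13 to 0.11 for Prtn3 in the WT flight comparison, -0.14 to 0.06 for Prtn3 in the KO flight comparison, -0.04 to 0.11 for Ctsg in the ground genotype comparison and -0.07 to 0.12 for Ms4a3 in the flight genotype comparison. Of the remaining values of single members, the calls that changed were those named in the text.

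With the mouse number as a replicate block, 0 members were called in the WT flight comparison and 1 in the KO flight comparison, where Mpo was at -1.06 (limma, adjusted p = 0.00158). Ground and flight mice share only a number: of 12 pairs, 7 had a correlation of their deviations over 0.1, and in 4 the mouse correlated best with its own number. No paired analysis was possible because WT and Nrf2-KO mice share no numbers in the genotype comparisons. Of all tested genes, 22 were called lower and 8 higher in the KO flight comparison with median-of-ratios scaling, against 264 and 0 as deposited; in the ground genotype comparison it was 63 and 35 against 376 and 16, in the flight genotype comparison 382 and 27 against 1034 and 12, and in the WT flight comparison 16 and 19 against 116 and 8. Without read counts, the precision of low levels such as those of Prss57 cannot be given.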
